A study of Mus musculus with 104 samples.

Results

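The 8 genes Zfp945, Igfbp4, Nppc, Grem1, Acy3, Tmc3, Megf11 and Nrsn1 were followed in the cortex and striatum of mice that carry a human mutant huntingtin transgene. They are 8 of the 48795 gene entries in each table of the BAC-CAG line and 8 of the 22981 in the table of the BACHD line, and all 8 were found and tested in every comparison. The 8 genes were selected on a low unadjusted p in one or more comparisons of transgenic with WT cortex, so every cortex difference between transgenic and WT mice given here is a description. Tests are kept for other contrasts, which are transgenic against WT striatum and the relation of both tissues in the same animal with group means removed. The striatum results were already known when the genes were chosen and are no independent support. The WT cortex libraries entered the comparisons that chose the genes, so WT striatum against WT cortex is a description as well. Sex within cortex is also a description, because it was fitted on the same cortex libraries.

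Total RNA was sequenced from perfused mice on the FvB background, each labelled Tg or WT. BAC-CAG mice and their WT littermates were sampled at 2 months (6 Tg and 6 WT), at 6 months (8 and 8) and at 12 months (8 and 8), and BACHD mice and their WT littermates at 12 months (4 and 4). Every group held as many males as females. Cortex and striatum came from the same animals, with 51 animals contributing both tissues. The 2 lines and the 3 ages each had their own WT littermates, so no 2 of the 4 cortex comparisons share a control. The label Tg covers both lines, and no treatment other than perfusion with buffered saline is recorded. The study's design text names 3 males and 3 females for each BAC-CAG age, and the tables hold 4 and 4 at 6 and 12 months. Both lines express the human huntingtin gene from its own regulatory sequence on a bacterial artificial chromosome, so the transgene is not restricted to 1 cell type. The lines differ in the make-up of the CAG repeat, which is uninterrupted in BAC-CAG mice and interrupted by CAA codons in BACHD mice.

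Huntington's disease is caused by an expanded CAG repeat in huntingtin, and the striatal projection neurons are the cells it is best known for affecting, with the cortical neurons that project onto them. The 8 genes belong to no common pathway. Zfp945 encodes a zinc finger protein of the KRAB family, whose members bind DNA and recruit repressive chromatin factors, often at transposable elements. Igfbp4, Nppc and Grem1 encode secreted signals or their regulators. Igfbp4 binds insulin-like growth factors and keeps them from their receptor, while Nppc is the precursor of C-type natriuretic peptide, the ligand of the guanylyl cyclase receptor Npr2, and Grem1 is an antagonist that binds bone morphogenetic proteins (BMPs). Tmc3 is a relative of the hair cell mechanotransduction channel genes Tmc1 and Tmc2, Megf11 is a cell surface protein with EGF-like repeats known for spacing retinal neurons, and Nrsn1 encodes neurensin-1, a vesicle membrane protein of neurites. Acy3 encodes aminoacylase 3, an enzyme that removes acetyl groups from N-acetylated amino acids and their cysteine conjugates.

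The 250 bases upstream of the start site are shown for Zfp945 and Igfbp4, the 2 genes whose difference was found in most comparisons. Of the 8 genes, 7 matched the promoter table, all but Megf11. Both windows come from RefSeq on build GRCm38.p6 and are written 5′ to 3′ in the direction of the gene, with Zfp945 at chr17:22867135-22867384 on the minus strand and Igfbp4 at chr11:99040994-99041243 on the plus strand. Capitals mark matches on either strand to TATAAA (the TATA box), CCAAT (the CCAAT box), GGGCGG (the GC box), CACGTG (an E-box) or TGACGTCA (a cAMP response element).
Zfp945: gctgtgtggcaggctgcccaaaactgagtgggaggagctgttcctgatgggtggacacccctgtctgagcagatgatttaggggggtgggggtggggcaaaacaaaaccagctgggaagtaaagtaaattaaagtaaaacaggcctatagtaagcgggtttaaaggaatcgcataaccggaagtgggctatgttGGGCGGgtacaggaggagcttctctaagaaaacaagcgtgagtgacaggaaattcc
Igfbp4: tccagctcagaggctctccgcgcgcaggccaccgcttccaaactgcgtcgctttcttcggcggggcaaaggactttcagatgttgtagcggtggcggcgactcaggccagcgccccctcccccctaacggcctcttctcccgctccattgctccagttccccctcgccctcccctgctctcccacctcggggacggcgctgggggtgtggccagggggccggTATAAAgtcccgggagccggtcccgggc
The Zfp945 window held 1 GGGCGG, the core of the GC box that Sp1 binds, which 32.7% of 32851 promoter windows of this length also held. The Igfbp4 window held 1 TATAAA, present in 12.4% of the windows. The Zfp945 window had 5 CG dinucleotides and 50.8% G+C, and the Igfbp4 window 22 and 69.2%, against medians of 6 and 52.4% over all windows. A match is a description of the letters and not a site.

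The 104 libraries held between 25842078 and 48446043 counts, with a median of 36454042. Levels are given as counts-per-million (CPM) values, a gene's count scaled by the library's total count. In cortex Msantd1, the gene next to huntingtin, lay between 3.79 and 19.6 CPM in the 26 transgenic libraries and between 1.12 and 2.28 CPM in the 26 WT libraries, without overlap. Markers of cortical excitatory neurons (10 of 10 detected in every library) summed to between 1754 and 2786 CPM in cortex and between 143 and 1166 CPM in striatum. In striatum the BAC-CAG replicates 2 and 7 at 12 months were highest for these cortical markers, at 792 and 1166 CPM, and 1 female WT library at 2 months held reads of Y-linked genes. Each library of a group is a separate animal by its label. In bulk tissue a lower number of cells of a type and less RNA per cell cannot be told apart.

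The lowest unadjusted p of each gene over the 4 cortex comparisons, by edgeR's quasi-likelihood test, lay between 2.84e-05 for Igfbp4 at 2 months and 2.94e-04 for Megf11 at 2 months. Among the 13800 genes tested in all 4 comparisons, 25 had a lowest p at or under that of Megf11, and the next gene above it was BC051142 at 3.09e-04. None of the 8 passed an adjusted p of 0.05 in any cortex comparison by edgeR. The genes that did were 0.00563% of those tested at 2 months, 0.0114% at 6 months, 0.00557% at 12 months and 0.00631% in BACHD mice. DESeq2 gave an adjusted p under 0.05 for 2, 0, 4 and 3 of the 8 in the same order, against 0.153%, 0.0114%, 0.0557% and 0.129% of all genes with an adjusted p, and it gave Tmc3 no adjusted p at 2 months. By limma none of the 8 passed, against 0.00563%, 0.0114%, 0.00557% and 0.00631% of genes. At an unadjusted p under 0.05, edgeR counted 4 of the 8 at 2 months, 1 at 6 months, 6 at 12 months and 3 in BACHD mice, against 6.91%, 3.46%, 2.45% and 6.37% of all genes tested. These shares cannot be read as support, because the same values chose the genes.

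How often a difference came back varied between the 8 genes. Of all 13800 genes, 17.3% had an unadjusted p under 0.05 in 1 or more of the 4 cortex comparisons, 1.21% in 2 or more with the same sign, 0.138% in 3 or more, and 0.0507% (7 genes) in all 4. Zfp945 was among the 7, lower in every comparison, Igfbp4 was lower in 3 and Grem1 higher in 2. Nppc, Acy3, Tmc3, Megf11 and Nrsn1 reached it in 1 comparison each. The sign was the same in all 4 comparisons for Zfp945 and Nppc (lower) and for Grem1 and Acy3 (higher), a pattern that 13.5% of all genes showed. The other 6 genes with p under 0.05 throughout were C7, Chrnb3, Commd10, Fam13a, Msantd1 and Zfp40. A difference that recurred was thus seen for Zfp945, Igfbp4 and Grem1, and the other 5 genes did not repeat at this threshold. Without single libraries the Grem1 value at 2 months kept an unadjusted p under 0.05 by edgeR in 8 of 12 fits (it was lost on leaving out transgenic library 1, 4 or 5 or WT library 6), and the Igfbp4 value at 12 months in 13 of 16 (lost on leaving out transgenic library 4 or 6 or WT library 4).

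**Figure D1:**
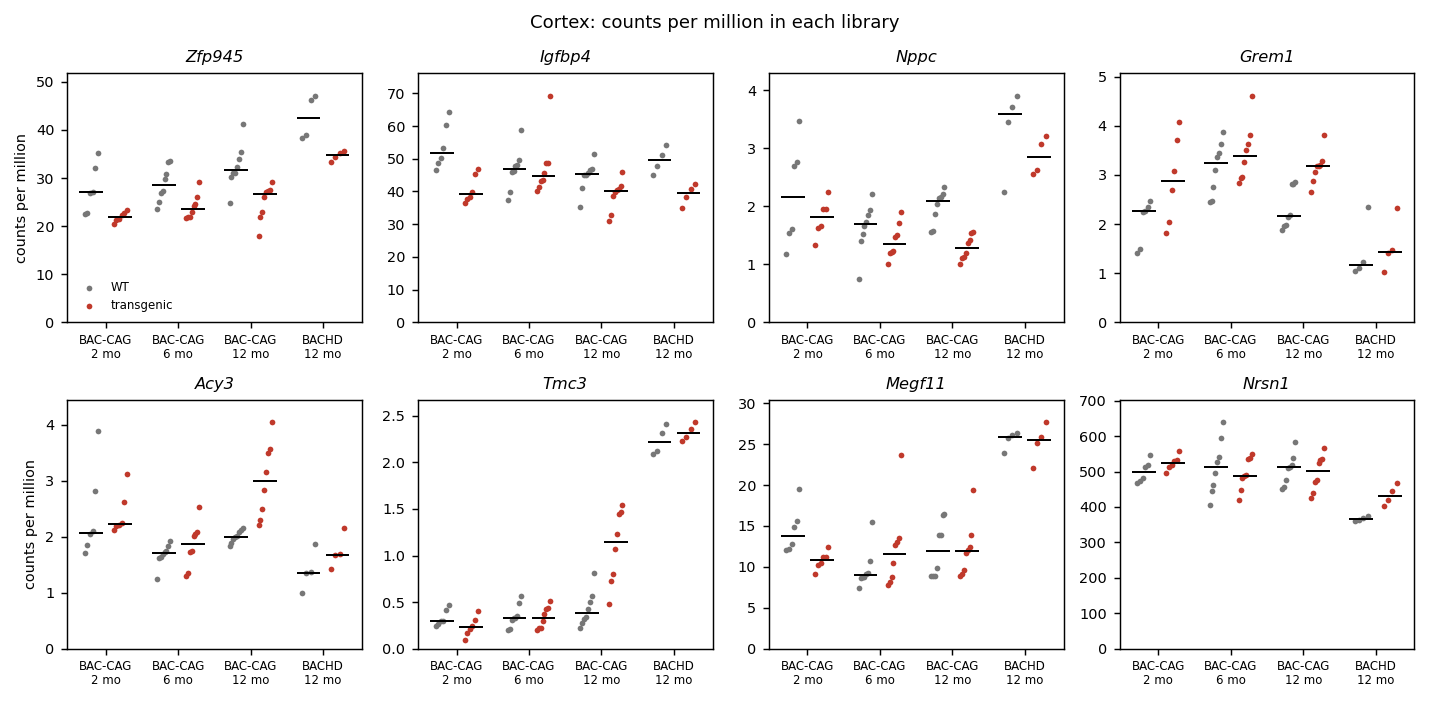
Level of each of the 8 genes in every cortex library (y axis, CPM from 0) for the 4 comparisons (x axis), with WT in grey, transgenic in red and the group median as a line. Zfp945 medians are lower in transgenic mice in all 4 comparisons, and for Acy3 at 12 months all 8 BAC-CAG libraries lie above all 8 WT libraries.

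Zfp945 (ENSMUSG00000059142, chromosome 17, 22846697 to 22867134, minus strand, GRCm38) was lower in transgenic cortex at every age and in both lines. At 2 months the BAC-CAG libraries ranged from 20.5 to 23.4 CPM with a median of 22.0, and the WT libraries from 22.5 to 35.1 with a median of 27.0. At 6 months they ranged from 21.6 to 29.1 (median 23.6) against 23.6 to 33.6 (median 28.5), and at 12 months from 17.9 to 29.2 (median 26.6) against 24.8 to 41.2 (median 31.7). The groups overlapped at each of the 3 ages, while all 6, 7 of 8 and all 8 transgenic libraries lay below the WT median.

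In BACHD cortex Zfp945 was at 35.3, 34.4, 35.6 and 33.3 CPM, and in WT littermates at 46.2, 47.1, 38.9 and 38.4 CPM. All 4 BACHD libraries were below all 4 WT libraries, a separation that 3.66% of genes showed in this comparison. The log2 change (transgenic over WT, with its standard error) was -0.34 (SE 0.09), -0.27 (SE 0.07), -0.39 (SE 0.08) and -0.29 (SE 0.06) in the order 2, 6 and 12 months and BACHD. That is 20.9%, 17.3%, 23.5% and 17.9% lower. With any 1 library left out, the unadjusted p by edgeR stayed under 0.05 in all 12, 16, 16 and 8 fits.

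In striatum Zfp945 did not pass the test in any comparison. Its log2 change was -0.10 (SE 0.06), -0.03 (SE 0.08), -0.01 (SE 0.07) and -0.16 (SE 0.08), with adjusted p between 0.745 and 1.0 by edgeR. At 12 months the BAC-CAG striatum libraries ranged from 25.7 to 33.1 CPM and the WT libraries from 21.0 to 30.8. The BACHD striatum libraries were at 45.1, 47.9, 40.9 and 48.6 CPM and their WT littermates at 53.3, 49.7, 54.9 and 44.5 CPM, so those groups overlapped. The difference between the cortex and striatum changes was not tested, since the cortex values chose the gene. KRAB zinc finger genes share long stretches of sequence, and reads may have been split or lost between near-identical copies.

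Igfbp4 (ENSMUSG00000017493, chromosome 11, 99041244 to 99054392, plus strand) was lower in transgenic cortex at 2 and 12 months and in BACHD mice, and level at 6 months. At 2 months the BAC-CAG cortex was at 39.8, 45.3, 46.9, 36.5, 37.7 and 38.4 CPM and the WT cortex at 50.2, 53.4, 48.6, 60.3, 64.3 and 46.5 CPM. Only the lowest WT library fell inside the BAC-CAG range. At 6 months the medians were 44.6 and 46.9 CPM, and 1 BAC-CAG library at 69.2 CPM stood above all the others.

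At 12 months Igfbp4 in BAC-CAG cortex ranged from 30.9 to 46.1 CPM (median 40.2) and in WT cortex from 35.1 to 51.4 (median 45.3), so the groups overlapped. BACHD cortex was at 38.4, 42.3, 40.8 and 35.0 CPM and WT cortex at 45.0, 51.1, 54.1 and 47.9 CPM, without overlap. That separation was seen for 3.66% of genes there. The 4 log2 changes in cortex were -0.41 (SE 0.07), 0.01 (SE 0.09), -0.20 (SE 0.08) and -0.33 (SE 0.07).

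In striatum Igfbp4 fell in BAC-CAG mice at 12 months, with a log2 change of -0.44 (SE 0.09), or 26.2% lower, and an adjusted p of 0.0452 by edgeR. The 8 BAC-CAG striatum libraries were at 31.8, 36.1, 30.6, 28.4, 36.4, 29.3, 36.1 and 42.5 CPM and the 8 WT libraries at 49.0, 33.7, 46.9, 46.0, 49.9, 45.5, 52.7 and 37.1 CPM. WT replicates 2 and 8 lay inside the BAC-CAG range, 4 BAC-CAG libraries were below every WT library, and every BAC-CAG library was below the WT median. The call held in 4 of the 16 fits that each left out 1 library, those that left out WT library 2 or 8 or transgenic library 5 or 8. The adjusted p rose above 0.05 without any of the other 12, up to 0.117, and was 0.0955 without BAC-CAG replicates 2 and 7 together.

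In the other striatum comparisons Igfbp4 did not pass the adjusted test by edgeR. The log2 changes were -0.38 (SE 0.11), -0.17 (SE 0.07) and -0.59 (SE 0.11) for the 2-month, 6-month and BACHD mice, with adjusted p values of 0.744, 1.0 and 0.305 by edgeR. BACHD striatum was at 25.7, 23.6, 32.5 and 21.9 CPM and WT striatum at 38.1, 38.7, 36.9 and 41.0 CPM, without overlap, which 3.19% of genes showed there. DESeq2 gave Igfbp4 an adjusted p of 5.14e-04 in BACHD striatum, and edgeR one of 0.0175 without BACHD replicate 3. That was the only 1 of 8 fits leaving out 1 library that passed by edgeR, and the highest adjusted p was 0.997. All 4 striatum comparisons had an unadjusted p under 0.05 with a negative sign, as 0.115% of the 13954 genes tested in all 4 had with either sign, and 19.2% of those genes had the same sign throughout. Beside the 12-month result, the summed striatal projection neuron markers (11 of 11 detected) lay at 3772 to 7201 CPM in BAC-CAG and 5823 to 8409 CPM in WT striatum, with medians of 5565 and 7416 CPM. Summed markers of microglia (6 of 6 detected) lay at 269 to 311 and 290.2 to 359 CPM, of mural cells (6 of 6) at 154 to 186 and 167 to 212 CPM, and of oligodendrocytes (7 of 7) at 3914 to 8689 and 6492 to 10908 CPM. Each of these lists had the lower median in BAC-CAG striatum. Other lists had the higher median there, with ranges that overlapped. Among them, cortical excitatory neuron genes had medians of 267 CPM in BAC-CAG and 215 CPM in WT striatum, and hippocampus and claustrum genes 400 and 373 CPM. The part of these markers in the Igfbp4 result was not tested.

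Nppc (ENSMUSG00000026241, chromosome 1, 86666291 to 86670571, minus strand) was at a low level, and its cortex difference was larger at 12 months than in the other 3 comparisons. At that age BAC-CAG cortex ranged from 1.0 to 1.56 CPM (median 1.27, 36 to 65 counts) and WT cortex from 1.56 to 2.34 CPM (median 2.09, 57 to 88 counts). The groups overlapped by 1 library of each, and 7 of the 8 BAC-CAG libraries were below every WT library. The log2 changes were -0.29 (SE 0.21), -0.24 (SE 0.17), -0.62 (SE 0.12) and, in BACHD mice, -0.19 (SE 0.16). BACHD cortex held 3.07, 2.63, 3.21 and 2.55 CPM and WT cortex 3.90, 3.71, 3.46 and 2.25 CPM, so the last WT library was below all 4 BACHD libraries. Without that library the unadjusted p in BACHD cortex by edgeR was 0.0182 at a log2 change of -0.35, and without WT replicate 8 at 6 months it was 0.00628 at -0.37. These were 1 of 8 and 1 of 16 fits that left out 1 library. In the others the p by edgeR stayed above 0.05, up to 0.551 and 0.343. In striatum Nppc did not pass the test, with log2 changes of 0.14 (SE 0.27), 0.15 (SE 0.21), 0.18 (SE 0.27) and -0.21 (SE 0.17) at counts of 10 to 46 per library.

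Grem1 (ENSMUSG00000074934, chromosome 2, 113746164 to 113758646, minus strand) was higher in BAC-CAG cortex at 2 and 12 months. At 12 months it ranged from 2.65 to 3.82 CPM (median 3.18) against 1.89 to 2.86 CPM (median 2.17) in WT cortex, and 7 of 8 BAC-CAG libraries were above every WT library. At 2 months the ranges were 1.83 to 4.09 CPM (median 2.88) and 1.42 to 2.48 CPM (median 2.26), and 4 of 6 were above every WT library. The log2 changes in cortex were 0.47 (SE 0.19), 0.12 (SE 0.12), 0.44 (SE 0.10) and 0.12 (SE 0.22). BACHD cortex was at 1.41, 1.03, 1.47 and 2.33 CPM and WT cortex at 1.05, 1.1, 1.23 and 2.35 CPM, so the groups covered nearly the same range. In striatum the 12-month value had the opposite sign, -0.40 (SE 0.23, adjusted p 0.504 by edgeR), and the other values were 0.23 (SE 0.15), -0.02 (SE 0.12) and -0.24 (SE 0.18). None passed the test.

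Acy3 (ENSMUSG00000024866, chromosome 19, 3986570 to 3990007, plus strand) was higher in BAC-CAG cortex at 12 months. The BAC-CAG libraries were at 3.49, 3.57, 3.15, 4.04, 2.22, 2.84, 2.49 and 2.30 CPM, and the WT libraries ranged from 1.83 to 2.15 CPM with a median of 2.00. All 8 were above all 8, a separation that 0.0111% of genes (2 genes) showed in that comparison. The cortex log2 changes were 0.00 (SE 0.18), 0.12 (SE 0.12), 0.58 (SE 0.12) and, in BACHD mice, 0.31 (SE 0.19). BACHD cortex was at 1.67, 2.16, 1.42 and 1.69 CPM and WT cortex at 1.87, 0.991, 1.36 and 1.34 CPM, with overlap. Without WT replicate 1 the unadjusted p in BACHD cortex by edgeR was 0.0361. This was 1 of 8 fits that left out 1 library, and in the others it stayed above 0.05, up to 0.404.

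In striatum Acy3 did not pass the adjusted test by edgeR. At 12 months the log2 change was 0.76 (SE 0.17), or 69.9% higher, with an adjusted p of 0.0675. The BAC-CAG striatum ranged from 3.53 to 8.61 CPM (median 5.82) and the WT striatum from 2.48 to 4.90 CPM (median 3.19), and 7 of 8 BAC-CAG libraries were above every WT library. This value sits at the threshold: the adjusted p was 0.00155 by DESeq2 and 0.0178 by limma. The other striatum values were -0.30 (SE 0.25), 0.17 (SE 0.17) and, in BACHD mice, 0.60 (SE 0.18, adjusted p 0.840). At 12 months it was 0.0632 without BAC-CAG replicates 2 and 7, at a log2 change of 0.87, and under 0.05 on leaving out transgenic library 2, 5 or 8 or WT library 8.

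Tmc3 (ENSMUSG00000038540, chromosome 7, 83584927 to 83625614, plus strand) was higher in BAC-CAG mice at 12 months in both tissues and not at the younger ages. In cortex the 8 BAC-CAG libraries were at 0.803, 1.47, 1.23, 1.54, 0.730, 1.44, 1.07 and 0.481 CPM (22 to 56 counts), and the WT libraries ranged from 0.22 to 0.816 CPM (median 0.385, 8 to 33 counts). In 5 of the 8 the level was above every WT library. The log2 changes in cortex were -0.52 (SE 0.31), -0.06 (SE 0.26), 1.30 (SE 0.27) and, in BACHD mice, 0.07 (SE 0.10). At 2 months the sign was negative, on 3 to 18 counts per library. The unadjusted p there by edgeR fell under 0.05 in 1 of 12 fits that left out 1 library, at 0.0451.

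In striatum Tmc3 rose at 12 months, with a log2 change of 1.41 (SE 0.24) and an adjusted p of 0.0152 by edgeR. The BAC-CAG striatum was at 3.31, 3.07, 4.17, 5.79, 2.15, 7.13, 2.89 and 1.51 CPM and the WT striatum at 0.965, 1.61, 1.46, 1.53, 1.22, 1.05, 1.47 and 1.44 CPM. The level in 7 of the 8 BAC-CAG libraries was above every WT library, and replicate 8, the lowest, was also the lowest in cortex. The adjusted p stayed between 0.00378 and 0.0419 with any 1 library left out, and was 0.0590 without BAC-CAG replicates 2 and 7, at a log2 change of 1.41.

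The other striatum values of Tmc3 were -0.28 (SE 0.36), 0.07 (SE 0.17) and 0.32 (SE 0.12) for the 2-month, 6-month and BACHD mice, the last with an adjusted p of 0.944 by edgeR. BACHD striatum was at 5.62, 5.48, 4.36 and 5.64 CPM and WT striatum at 4.49, 3.65, 4.66 and 4.01 CPM. The change at 12 months minus that at 2 months in BAC-CAG striatum was 1.68 (SE 0.43, adjusted p 0.331 by edgeR, 0.0494 by DESeq2), and BACHD minus BAC-CAG at 12 months was -1.11 (SE 0.35, adjusted p 0.834). An antisense gene, Gm16638, overlaps Tmc3 over 28567 bases on the other strand, and the strand setting of the counting is not given in the sources used here. Its median was 10.9 CPM in BAC-CAG and 11.1 CPM in WT cortex at 12 months, and 18.2 and 15.9 CPM in striatum.

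Megf11 (ENSMUSG00000036466, chromosome 9, 64385626 to 64709205, plus strand) was lower in BAC-CAG cortex at 2 months, and that difference was not seen in the other comparisons. The 2-month BAC-CAG libraries ranged from 9.09 to 12.4 CPM (median 10.9) and the WT libraries from 12.1 to 19.5 CPM (median 13.8). The cortex log2 changes were -0.42 (SE 0.09), 0.29 (SE 0.15), 0.00 (SE 0.17) and -0.01 (SE 0.07), so the sign at 6 months was the opposite. The 6-month value had an unadjusted p under 0.05 by edgeR in 3 of 16 fits that left out 1 library. Summed markers of several other cells also had the lower median in BAC-CAG cortex at 2 months, with ranges that overlapped. Astrocyte genes (6 of 6 detected) summed to 5078 to 5553 CPM in BAC-CAG and 5445 to 6195 CPM in WT cortex, oligodendrocyte genes (7 of 7) to 1903 to 2361 and 2008 to 3698 CPM, and oligodendrocyte precursor genes (5 of 5) to 164 to 199 and 176 to 254 CPM. Microglia genes (6 of 6) summed to 211 to 240.1 and 218 to 268 CPM, and deep cortical layer genes (8 of 8) to 106 to 158 and 124 to 154 CPM. The deep cortical layer list is not specific to cortex, as its median over all libraries was 502 CPM in striatum and 140 CPM in cortex. At an unadjusted p under 0.05 by edgeR, 2, 5, 3, 3 and 1 genes of these lists were lower, in the order given, and none was higher. Over all genes tested, 6.91% had such a p in either direction. Not every list was lower: cortical excitatory neuron genes had medians of 2702 CPM in BAC-CAG and 2706 CPM in WT cortex, and immediate early genes 1314 and 1054 CPM. The part of these cell markers in the 2-month differences of Megf11 and Igfbp4 was not tested. In striatum none passed the test, at 0.20 (SE 0.12), -0.21 (SE 0.12), -0.12 (SE 0.16) and -0.01 (SE 0.06).

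Nrsn1 (ENSMUSG00000048978, chromosome 13, 25252040 to 25270502, minus strand) had at least 6521 counts in every library and differed in BACHD cortex. BACHD cortex was at 445, 466.4, 403 and 419 CPM and WT cortex at 362, 375, 369 and 360.2 CPM, without overlap. Such a separation was seen for 3.66% of genes in that comparison. The log2 changes in cortex were 0.06 (SE 0.04), -0.06 (SE 0.07), -0.03 (SE 0.06) and 0.25 (SE 0.04). In striatum the values were 0.06 (SE 0.05), 0.03 (SE 0.08), 0.02 (SE 0.06) and -0.05 (SE 0.07), and none passed the test. BACHD striatum was at 193, 169, 170.4 and 190.0 CPM, inside the WT range of 167 to 212 CPM.

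**Figure D2:**
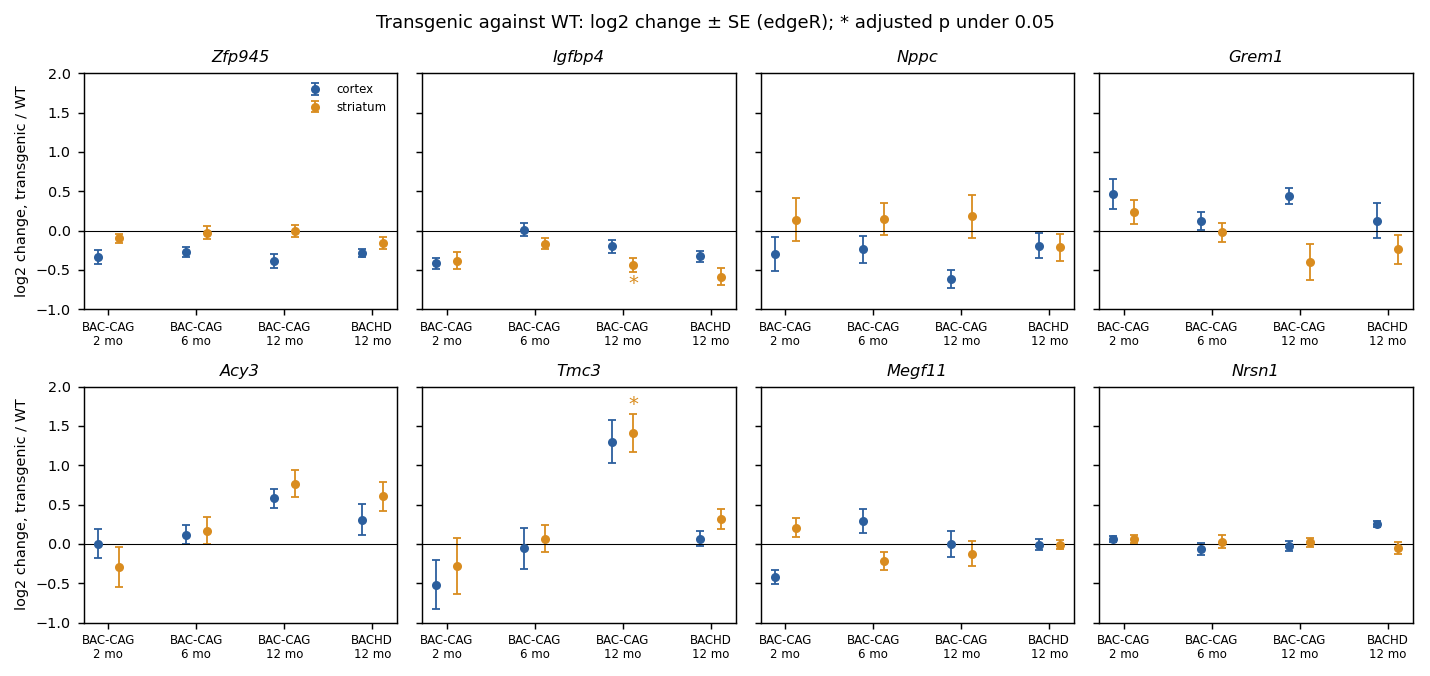
Log2 change of transgenic over WT mice (y axis, points, with bars of 1 standard error from edgeR) in cortex (blue) and striatum (orange) for the 4 comparisons (x axis), 1 panel per gene. Asterisks mark the 2 values with an adjusted p under 0.05, Igfbp4 at -0.44 and Tmc3 at 1.41 in BAC-CAG striatum at 12 months.

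Over the whole set, 2 of the 8 genes passed the adjusted test in BAC-CAG striatum at 12 months, 1 in each direction, against 0.329% of the 18246 genes tested. DESeq2 and limma called 3 each, against 1.61% and 1.09%, and 3 had an unadjusted p under 0.05 by edgeR, against 12.2%. Their median log2 change there was 0.01, beside 0.00 over all genes. In the other striatum comparisons edgeR called 0 of the 8, against 0.00558% of genes at 2 months, 0.0113% at 6 months and 0.0378% in BACHD mice. At an unadjusted p under 0.05, edgeR counted 1, 1 and 3 of the 8 there, against 6.27%, 4.39% and 5.12% of genes. At an adjusted p DESeq2 called 0, 0 and 1, against 0.0336%, 0.153% and 0.29%, and gave no adjusted p to Nppc at 6 months or to Nppc and Grem1 in BACHD mice. By limma 0, 0 and 0 were called, against 0.00558%, 0.0338% and 0.0757%. Neither interaction test called any of the 8 by edgeR: the change between 2 and 12 months in BAC-CAG striatum called 0% of 18995 genes, and the difference between the lines 0.00651% of 15361. The counts among the 8 at an unadjusted p under 0.05 by edgeR were 3 and 1, against 7.17% and 5.82% of genes. DESeq2 called 1 and 0, against 0.125% and 0.00652%, and limma 0 and 0, against 0% and 0.00651%.

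**Figure D3:**
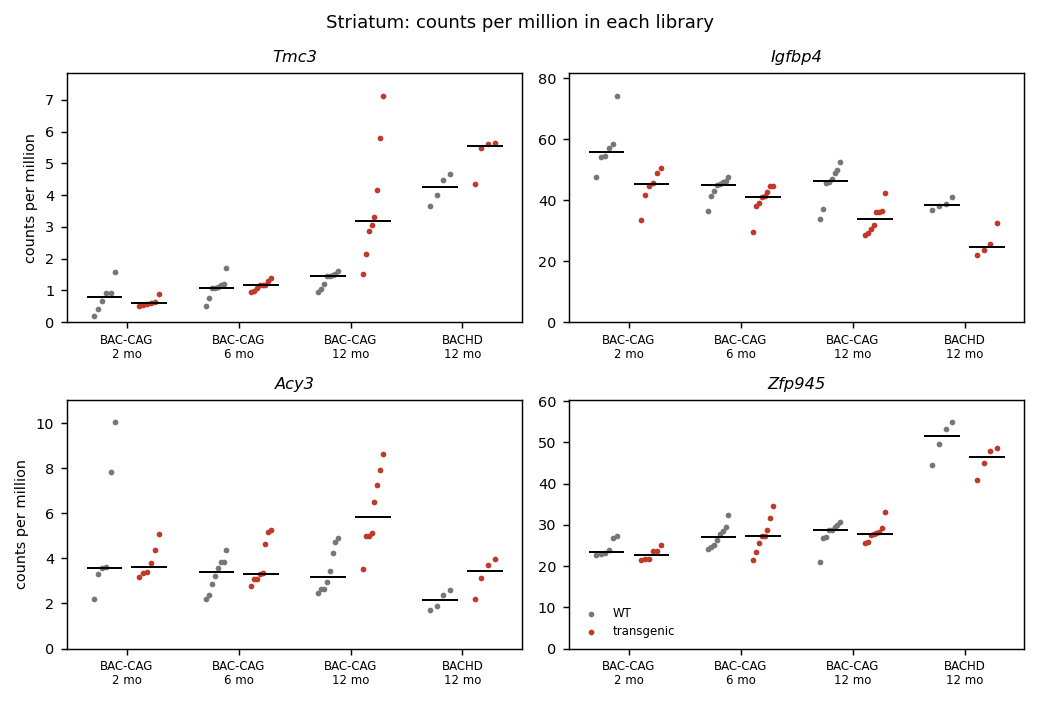
Level of Tmc3, Igfbp4, Acy3 and Zfp945 in every striatum library (y axis, CPM from 0) for the 4 comparisons (x axis), with WT in grey, transgenic in red and the group median as a line. In BAC-CAG mice at 12 months Tmc3 spans 1.51 to 7.13 CPM against 0.965 to 1.61 in WT, while Zfp945 overlaps in all 4 comparisons.

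The WT animals give the level of each gene in both tissues without the transgene. In the order 2, 6 and 12 months and BACHD cohort, striatum against cortex differed for 5, 5, 7 and 7 of the 8 genes by edgeR at an adjusted p under 0.05, where 59.4%, 66.2%, 65.5% and 61.2% of all genes did. Because WT cortex values had a part in choosing the genes, nothing is read from these counts, and the values below are descriptions. The BACHD count includes Acy3, whose adjusted p by edgeR was 0.0325 and rose to at most 0.0957 without WT cortex replicate 3 or 4 or WT striatum replicate 1 or 2. It also includes Zfp945, at 0.0423 by edgeR and 0.0508 by DESeq2, which stayed under 0.05 by edgeR in 2 of 8 fits that left out 1 library, those without WT striatum replicate 2 or 4. Nppc was lower in striatum, with log2 changes of -1.75 (SE 0.29), -1.73 (SE 0.20), -1.84 (SE 0.18) and -1.86 (SE 0.20), about 72.0% lower at 12 months. Nrsn1 was also lower, between -0.91 (SE 0.05) and -1.02 (SE 0.07). Tmc3 was higher in striatum, by 1.15 (SE 0.37), 1.62 (SE 0.22), 1.57 (SE 0.22) and 0.87 (SE 0.11), and Acy3 by 0.94 (SE 0.30), 0.94 (SE 0.14), 0.75 (SE 0.14) and 0.56 (SE 0.20). Each of these 4 genes had the same sign in all 4 cohorts.

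The tissue difference of Megf11 had both signs. The 2-month and BACHD cohorts had less of it in striatum, with log2 changes of -0.30 (SE 0.09) and -0.28 (SE 0.06). The 6-month and 12-month animals had more, with 0.95 (SE 0.12) and 0.61 (SE 0.17). All 5 paired WT animals at 2 months and all 4 in the BACHD cohort had less Megf11 in striatum, while all 8 at 6 months and 7 of 8 at 12 months had more. Zfp945 also had both signs, with -0.27 (SE 0.09) at 12 months in the BAC-CAG cohort and 0.22 (SE 0.08) in the BACHD cohort. Igfbp4 was at -0.39 (SE 0.07) in the BACHD cohort and Grem1 at 0.69 (SE 0.12) at 12 months in the BAC-CAG cohort. Grem1 and Zfp945 had their lowest selecting p in that same 12-month cortex comparison, where WT cortex had a median of 2.17 against 3.18 CPM for Grem1 and 31.7 against 26.6 CPM for Zfp945. The BACHD table holds fewer genes than the others. Between the BAC-CAG ages, age and table cannot be told apart. The BACHD and 12-month BAC-CAG cohorts are of the same age, and between them cohort and table cannot be told apart.

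**Figure D4:**
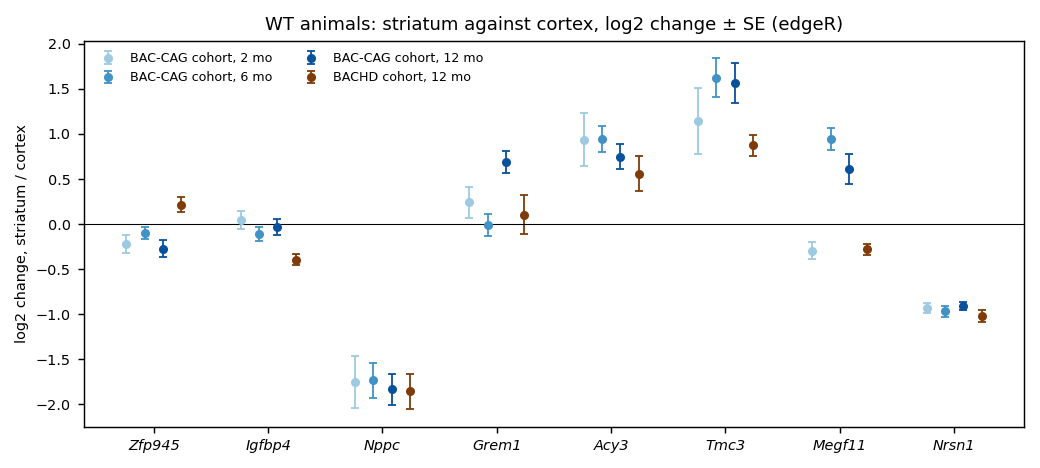
Log2 change of striatum over cortex in WT animals (y axis, points, with bars of 1 standard error from edgeR) for the 8 genes (x axis) in the 4 tables (colours). Nppc and Nrsn1 lie below 0 and Tmc3 and Acy3 above 0 in all 4, and Megf11 lies on both sides.

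Levels of the same gene in the 4 WT cortex groups can be set side by side, with the same limit. WT medians of Zfp945 were 27.0, 28.5, 31.7 and 42.5 CPM, and those of Igfbp4 51.8, 46.9, 45.3 and 49.5 CPM. For Tmc3 the WT cortex median was 0.297, 0.329 and 0.385 CPM at the 3 ages and 2.22 CPM in the BACHD cohort, and for Megf11 13.8, 8.98, 11.9 and 25.9 CPM. Nrsn1 was at 498, 513, 512 and 366 CPM, Nppc at 2.16, 1.70, 2.09 and 3.58, Grem1 at 2.26, 3.23, 2.17 and 1.17, and Acy3 at 2.07, 1.71, 2.00 and 1.35. The WT ranges of the 3 BAC-CAG ages overlapped for all 8 genes, while for Tmc3 and Megf11 the WT libraries of the BACHD cohort were above all WT libraries of the BAC-CAG tables. For Nrsn1 they were below all of them, at 360.2 to 375 CPM, where the lowest BAC-CAG cohort WT library was at 406 CPM.

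None of the 8 genes passed the test between female and male cortex by edgeR, where 0.101%, 0.199%, 0.719% and 0.12% of genes did in the order 2, 6 and 12 months and BACHD cohort. At an unadjusted p under 0.05, edgeR counted 2, 4, 2 and 2 of them, against 9.54%, 10%, 12.9% and 7.7% of genes. DESeq2 called 0 in each, against 0.587%, 0.712%, 2.05% and 0.379%, with no adjusted p for Tmc3 at 2 months, and limma 0 in each, against 0.175%, 0.467%, 1.4% and 0.278%. Grem1 was lower in females in all 4, at -0.35 (SE 0.19), -0.18 (SE 0.12), -0.24 (SE 0.10) and -0.69 (SE 0.22), with adjusted p between 0.305 and 0.613. Zfp945 was at -0.09 (SE 0.09), 0.16 (SE 0.07), 0.23 (SE 0.08) and 0.15 (SE 0.06). Sex was a term in every comparison of transgenic with WT mice. The cortex libraries of the sex contrast also chose the genes, so its counts and values are descriptions.

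Whether an animal with a high level in cortex also had a high level in striatum was tested on deviations of log2(CPM + 1) from the group mean, over 51 animals and with p from a permutation test adjusted over the 8 genes. Animals were permuted all together and not within groups, so a difference in spread between groups was not allowed for. For Tmc3 in striatum the standard deviation was 1.88 CPM in BAC-CAG mice at 12 months and 0.134 CPM at 2 months. Tmc3 gave a Pearson r of 0.53 (adjusted permutation p 7.20e-04) and a Spearman rho of 0.28 (adjusted permutation p 0.12). By table its r was 0.17, 0.25, 0.69 and 0.00, highest in the 12-month BAC-CAG cohort, and without the 2 animals farthest out in cortex it was 0.46. Acy3 gave r 0.46 (adjusted permutation p 0.00224) and rho 0.36 (adjusted permutation p 0.0802), with r 0.72, 0.46, 0.29 and 0.14 by table and 0.27 without 2 animals. Nrsn1 gave r 0.33 (adjusted permutation p 0.0466) and rho 0.32 (adjusted permutation p 0.0858), with r 0.46, 0.60, -0.19 and -0.02 by table and 0.26 without 2 animals. For Zfp945, Igfbp4, Nppc, Megf11 and Grem1, r lay between 0.13 and 0.23 and did not pass. In the 25 WT animals alone, r was 0.26 for Tmc3 (adjusted permutation p 0.314), 0.51 for Acy3 (adjusted permutation p 0.0510) and 0.55 for Nrsn1 (adjusted permutation p 0.0385), so the first 2 no longer passed. No gene passed by Spearman's rho over all animals, and in the BACHD cohort none of the 3 had an r above 0.14. The share of all genes that pass this test was not computed, so nothing particular to these 3 genes is read from it. Within single animals the deviations of both tissues correlated over 12721 genes at a median of 0.367.

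**Figure D5:**
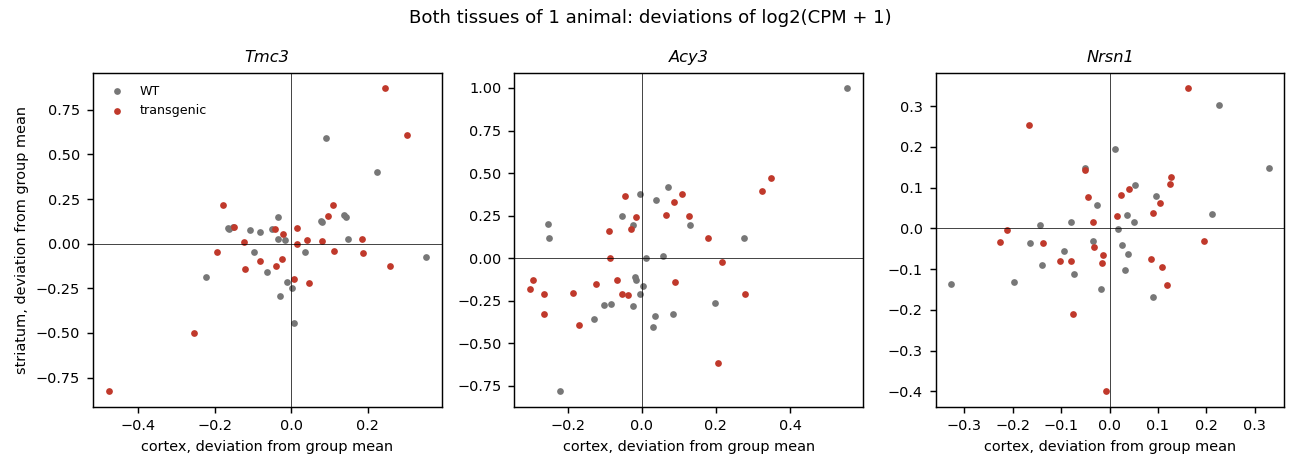
Deviation of log2(CPM + 1) from the group mean in striatum (y axis) against cortex (x axis) for Tmc3, Acy3 and Nrsn1, 1 point per animal, 51 animals, WT in grey and transgenic in red. The Pearson r over all animals is 0.53 for Tmc3, 0.46 for Acy3 and 0.33 for Nrsn1.

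Over the 52 cortex libraries, with group means removed, the genes most like each of the 8 among 12498 searched were found by Spearman's rho, as a description of libraries that share dissection and depth. Zfp945 was closest to Lama4 (0.79) and Sun1 (0.76), Megf11 to Hpcal4 (0.82) and D430019H16Rik (0.76), and Nrsn1 to Baalc (0.74) and Ahcyl2 (0.72). Igfbp4 was closest to Mmp17 (0.67) and Dkk3 (0.61), Acy3 to Degs1 (0.62) and Epha3 (0.61), and Nppc to Igf2r (0.61) and Ndnl2 (0.60). The lowest values were those of Tmc3, with Cenpq (0.56) and Fcho2 (0.52), and Grem1, with Smad3 (0.53) and Efna3 (0.51). Between the 8 genes themselves the highest rho was 0.54 for Zfp945 with Nrsn1 and the lowest -0.39 for Igfbp4 with Grem1.

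The relatives of the 8 genes were taken from lists of each family, and none of them passed an adjusted p of 0.05 in any of the 8 comparisons of transgenic with WT mice by edgeR. Of 32 BMP pathway genes other than Grem1, 30 or 31 were tested, and at an unadjusted p under 0.05 in cortex edgeR counted 0 higher and 1 lower at 2 months, 3 and 1 at 6 months, 0 and 0 at 12 months and 0 and 4 in BACHD mice. Over all genes tested the shares in either direction were 6.91%, 3.46%, 2.45% and 6.37%. The 2 BMP pathway genes with the smallest p were Fst, which encodes the activin antagonist follistatin (-0.46, SE 0.09, BACHD cortex), and Id4, a BMP target (-0.34, SE 0.09, BAC-CAG striatum at 12 months). Among the insulin-like growth factor genes the smallest were Igfbp5 (0.18, SE 0.05, BACHD cortex) and Igfbp3 (0.34, SE 0.11, BAC-CAG striatum at 2 months), both binding proteins like Igfbp4. Of the 16 tested in cortex at 12 months, 11 had a positive sign and none had an unadjusted p under 0.05 by edgeR, against 2.45% of all genes tested. In every family list the named relatives hold the smallest p over all 8 comparisons, so nothing is read from their signs.

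In the natriuretic peptide system the smallest p values belonged to Prkg2, a cGMP-dependent kinase downstream of the receptor of C-type natriuretic peptide (-0.36, SE 0.07, BACHD striatum), and Npr1, the receptor for the atrial peptide (-0.34, SE 0.11, BACHD cortex). Among the relatives of Tmc3, Tmc1 had a log2 change of 0.63 (SE 0.16) in BAC-CAG cortex at 12 months and Lhfpl5 one of 0.33 (SE 0.13) in BAC-CAG striatum at 6 months. Aspa, the aminoacylase of oligodendrocytes, was at -0.40 (SE 0.12) in BAC-CAG striatum at 12 months, and Acy1 at 0.14 (SE 0.06) in cortex at 2 months. The summed oligodendrocyte markers also had the lower median in BAC-CAG striatum at 12 months, and their part in the Aspa value was not tested. Megf10 was at 0.22 (SE 0.08) in BACHD striatum and Scarf2 at 0.34 (SE 0.14) in BAC-CAG cortex at 6 months. Nrsn2, the only other neurensin, reached no unadjusted p under 0.05 in any of the 8 comparisons. Of the 9 other KRAB genes named Zfp940 to Zfp949, 8 or 9 were tested in cortex and none had an unadjusted p under 0.05 there by edgeR. In striatum Zfp943 (-0.12, SE 0.05, 6 months) and Zfp942 (-0.11, SE 0.05, 2 months) had one. Over all genes tested the share ran from 2.45% to 6.91% in the cortex comparisons and from 4.39% to 12.2% in striatum. With so few genes, no difference between the tissues is read from this.

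The nearest tested protein-coding genes on either side give a local comparison for each of the 8. Zfp40, another KRAB zinc finger gene that lies 306735 bases from Zfp945, was also lower in all 4 cortex comparisons, with log2 changes of -0.26, -0.16, -0.17 and -0.27, and was 1 of the 7 genes under 0.05 throughout. In striatum Zfp40 was at -0.01, -0.02, 0.06 and -0.09. On the other side Zfp946, at 390008 bases, was at 0.02, -0.07, 0.02 and 0.08 in cortex. Zfp40 was singled out after its values were seen, and the neighbours shared the selecting contrast, so this is a description. Of the 64 cortex values of the 16 neighbours, 10 had an unadjusted p under 0.05, 4 of them from Zfp40. Over all genes tested the share ran from 2.45% to 6.91% by comparison.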

How the data were processed

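Total RNA from cortex and striatum was sequenced, and the authors deposited 4 tables of raw read counts per gene, 1 for each BAC-CAG age and 1 for BACHD mice. STAR, HTSeq and the builds GRCm38 and mm10 are named in the submitters' processing notes. The library kit is stranded per the labels' protocols, and the strand setting of the counting is not given in the sources used here. Library totals ran from 25842078 to 48446043 counts. The members and gene lists were chosen with earlier results of these data known.

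Each comparison was fitted over all genes kept by filterByExpr, with TMM factors, sex as a covariate and edgeR's quasi-likelihood test (edgeR 4.0.16, R 4.3.3), and p was adjusted by Benjamini-Hochberg over all genes tested, with a threshold of 0.05. A standard error is the absolute log2 change divided by the root of F. DESeq2 1.42.0 and limma 3.58.1 were alternatives, with RLE factors, no filter, no sex term and each library left out. Correlations used log2(CPM + 1), a pseudocount of 1, and 100000 permutations (SciPy 1.17.1, Python 3.11.15; plots with matplotlib 3.10.9). Fits were tested on simulated counts.

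The text names the 8 genes, the 2 cortex genes closest to each by Spearman's rho with a mean of at least 1 CPM in every group, and up to 2 relatives per family list with the smallest unadjusted p. Cortex and striatum were paired by the animal names in the labels: over 51 animals and 12721 genes the deviations of both tissues correlated at 0.144 to 0.719, median 0.367, all above 0.1. Transgenic and WT mice are different animals. Cerebellum was not analysed here.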

Additional observations from a re-analysis of the deposited data

Results flagged for a closer look

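Of 128 groups of libraries, 10 held 1 library far from the others by Dixon's test, where chance gives about 1 in 20 groups. In cortex, Igfbp4 was at 69.2 CPM in BAC-CAG replicate 1 at 6 months (others 40.2 to 48.8) and Megf11 at 23.7 CPM in BAC-CAG replicate 8 at 6 months (others 7.79 to 13.5) and 15.5 CPM in WT replicate 1 at 6 months (others 7.45 to 10.7). Acy3 was at 1.24 CPM in WT cortex replicate 6 at 6 months (others 1.63 to 1.92), and Grem1 at 2.35 CPM in replicate 4 of the WT littermates of BACHD mice (others 1.05 to 1.23).

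In striatum, Igfbp4 was at 29.5 CPM in BAC-CAG replicate 7 at 6 months (others 38.2 to 44.8) and Megf11 at 29.2 CPM in BAC-CAG replicate 3 at 12 months (others 13.9 to 20.9). Tmc3 was at 0.878 CPM in BAC-CAG replicate 2 at 2 months (others 0.515 to 0.634) and at 4.36 CPM in BACHD replicate 3 (others 5.48 to 5.64). Zfp945 was at 21.0 CPM in WT replicate 2 at 12 months (others 26.8 to 30.8).

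Megf11 in striatum minus cortex of the same WT animal, as the mean difference of log2(CPM + 1), was 0.90 at 6 months (8 of 8 animals higher), -0.27 at 2 months (5 of 5 lower) and -0.23 in the BACHD cohort (4 of 4 lower). At 12 months in the BAC-CAG cohort it was 0.62 (7 of 8 higher). The difference between these cohorts was not tested.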

How the results depend on the processing

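Member values were recomputed under each setting, but of the fits leaving out 1 library only the lowest and highest log2 change are counted here. The threshold was an unadjusted p under 0.05 for transgenic against WT cortex and an adjusted p under 0.05 elsewhere. Of the values counted, 661 did not cross it, 13 passed it and 10 lost it, 4 moved without a test result changing, and none of the called values reversed. Calls lost in other fits are not in these counts, such as Igfbp4 in BAC-CAG striatum at 12 months, which held in 4 of 16. Where the main fit made no call, the 661 are values within 1 standard error of it, and some of these changed sign. Acy3 in BAC-CAG cortex at 2 months, at 0.00 in the main fit, fell as low as -0.11 with 1 library left out. In BAC-CAG striatum at 12 months the 2 called genes became 1 without the sex term (Igfbp4 adjusted p 0.0608), 0 without BAC-CAG replicates 2 and 7 (chosen after seeing the data), and 1 to 3 with each library left out, by edgeR. Over all genes the 60 calls there became 281 by DESeq2, 199 by limma and 15 without those replicates. In BACHD striatum the 0 calls became 1 by DESeq2 and 0 to 1 with each library left out. The age interaction gave 0 by edgeR and 1 by DESeq2. In cortex at 6 months, 1 gene at an unadjusted p under 0.05 became 2 with no low-count filter (Megf11, log2 change 0.30) and 1 to 2 with each library left out. The 3 same-animal relations became 1, that of Nrsn1, in WT animals only. The Zfp945 tissue call in the BACHD cohort was lost with RLE factors (adjusted p 0.0567) and no filter (0.0502). The cause of these changes was not tested.

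With the animal as a replicate block in the striatum against cortex fits, which the pairing of both tissues allows, 5, 5, 7 and 7 of the 8 genes passed, as many as without it. At counts of 3 to 56 per library in BAC-CAG cortex, depth limits what can be seen for Tmc3.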
